A study of Mus musculus and Rattus norvegicus with 37 samples.

Results

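The comparison described here is that of inhibition of the microRNA family miR-29 with no inhibition in the liver of mice with intact Sirt1, and it uses 13 of the 37 livers of the series. LNA29 combines 2 oligonucleotides made of locked nucleic acid (LNA), one directed against miR-29a and the other against miR-29b and miR-29c, each given at 20 mg/kg in 1 subcutaneous injection. Members were chosen by their labels: every library of the WT/Floxed group, of which 8 came from LNA29-treated and 5 from saline-treated female C57BL/6J mice on chow, killed in the fed state on day 7. By the column names, the LNA29 livers came from 4 WT mice (replicates 1, 2, 4 and 7) and 4 floxed mice (replicates 3, 5, 6 and 8), and the saline livers from 3 WT mice (replicates 1, 3 and 4) and 2 floxed mice (replicates 2 and 5). The floxed mice are control littermates from a liver-specific Sirt1 knockout colony. They were 15 to 20 weeks old and the WT mice 9 to 11 weeks old, so background and age cannot be told apart. The control was saline and not an LNA of another sequence, so inhibition of miR-29 and exposure to LNA chemistry cannot be told apart either. The authors excluded 1 saline-treated floxed mouse. The libraries were made from poly(A) RNA, and mature miR-29 was not measured in the values used here.

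The miR-29 family comprises miR-29a, miR-29b and miR-29c, short RNAs that guide the Argonaute complex to messages with a match to their seed, the bases 2 to 8 from the 5′ end, and lower the stability and translation of those messages. The family is best known for its many targets among collagens, elastin and other proteins of the extracellular matrix, and for its targets among enzymes that write or remove DNA methylation. In liver it is present in hepatocytes as well as in matrix-producing stellate cells, and it has been linked to glucose and lipid metabolism. The mature sequences are shown because all of them share 1 seed, in capitals, so that a single sequence search covers the whole family (RefSeq, GRCm38.p6).
mmu-miR-29a-3p: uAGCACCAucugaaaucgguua
mmu-miR-29b-3p: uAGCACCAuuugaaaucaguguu
mmu-miR-29c-3p: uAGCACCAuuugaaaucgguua
miR-29a lies at chr6:31062673-31062694 on the minus strand, miR-29b at chr6:31063025-31063047 on the minus strand and at chr1:195037091-195037113 on the plus strand, and miR-29c at chr1:195037600-195037621 on the plus strand. The match to this seed in a message reads TGGTGCT, and TGGTGCTA when the base opposite position 1 is an A.

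The next sequences are sites of this kind in the 3′ untranslated regions (UTRs) of genes whose values carry the results below, with the matching bases in capitals and 8 bases of context on either side. They were read from GENCODE M21 transcripts of GRCm38. A match is a description of the letters and not evidence of binding.
Eln: atcaacgtTGGTGCTActgcttgg
Eln: agggaaatTGGTGCTAcatgttgg
Col3a1: tgtctcaaTGGTGCTAtaataaat
Ccdc28b: aagcccctTGGTGCTAtggggtcg
Purg: aactcctgTGGTGCTAattcctcc
Tdg: attttccaTGGTGCTAcagacagc
P3h1: cttctgcaTGGTGCTActgttctt
Lamc1: tgacacacTGGTGCTAttaattat
Timd2: cagttcatTGGTGCTAtttctact
Enho: ttaggagtTGGTGCTAgggccagg
Lpl: tagatttgTGGTGCTAactttgtg
Sparc: ggggataaGGTGCTAacatagat
Slc30a3: gtgttcttTGGTGCTgtggcctg
The 2 Eln sites lie on the minus strand at chr5:134703728-134703751 and chr5:134703481-134703504, and the Col3a1 site on the plus strand at chr1:45348974-45348997. Those of Ccdc28b (chr4:129619310-129619333) and Enho (chr4:41638402-41638425) are on the minus strand, and those of Purg (chr8:33417281-33417304), Tdg (chr10:82649669-82649692), P3h1 (chr4:119248185-119248208) and Lpl (chr8:68906762-68906785) on the plus strand. Those of Lamc1 (chr1:153220060-153220083), Timd2 (chr11:46670245-46670268), Sparc (chr11:55395461-55395483) and Slc30a3 (chr5:31086275-31086297) are on the minus strand. Sparc and Slc30a3 hold 7-base sites only, Sparc the form without the first base and Slc30a3 the form without the last.

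Values are DESeq2-normalized counts per gene. Depth was estimated at 44.2 to 77.9 M reads per library from the lowest values, where 1 read was worth 0.746 to 1.37 normalized counts, so genes below about 50 counts rest on few reads. The libraries were run on 3 flow cells, each of which held both treatments. The livers carried their defining hepatocyte markers at a summed count of 4750000 to 7870000. LNA29 replicate 4 stood apart: its sum of 18 Kupffer cell and macrophage markers was 75400, against 16800 to 39300 in the other LNA29 livers and 26700 to 42300 in the saline livers, with the macrophage receptor gene Marco at 8851 there and at most 1324 elsewhere. Its sum of 12 lymphocyte markers was 4920, against 1140 to 3090 in the others. Ighm (2674 counts) and Ptprc (1378 counts) made up most of that sum, so it says little about the other lymphocyte markers. In whole tissue, fewer cells of a type and less RNA per cell cannot be told apart, and this holds for every result below.

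LNA29 shifted a broad set of liver genes in both directions by modest amounts. Of 15811 genes with a mean of at least 10 counts, 552 (3.49%) rose and 436 (2.76%) fell, 988 in all (6.25%). These shares are the background for the counts of each gene list below. Their base includes genes with a mean of 50 or less, which could not meet the criteria. A mean above 50 was reached by 12876 genes, and the shares over these alone are higher. A gene is said to have risen or fallen where it met the 4 criteria of the study, namely p under 0.05, adjusted p under 0.2, a mean count over 50 and a change of more than 1.2-fold, here in limma's moderated test on log2(normalized count + 1) with background as a covariate and Benjamini-Hochberg adjustment. All adjusted p-values below are from this test, the differences are log2(count + 1) of LNA29 minus saline, which understates changes of low genes, and n is 8 and 5 throughout. In brackets after a gene's name, the value before its adjusted p is this log2 difference. The median difference of the genes that rose was 0.45 and of those that fell -0.42, against 0.00026 over all genes tested, and 60 rises and 28 falls were larger than 1. An adjusted p under 0.05 was reached by 220 higher and 139 lower genes. LNA29 and saline livers did not overlap in count for 239 genes (1.51%), made up of 149 with higher counts (0.942%) and 90 with lower counts (0.569%) after LNA29, and 116 and 65 of these met the criteria as well. Of the genes that rose, 94.7% were higher with LNA29 within each of the 3 flow cells, against 18.8% of all genes, and of those that fell 96.6% were lower within each, against 18.1%. These flow cell values come from the same livers as the calls. The counts of calls depend on single libraries: 317 genes rose and 280 fell without saline replicate 2, 342 and 254 without saline replicate 5, 376 and 276 without LNA29 replicate 7, and 586 and 517 without LNA29 replicate 4.

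The largest rises with groups that did not overlap were those of Dnaic1, Slc30a3, Eln, H19, Rnf225, Ccdc28b, Nfe2l3, Rad54b, Gm15638, Purg, Col3a1, Dnmt3b, Sparc, Taf7 and Mpzl1. Eln encodes elastin, the core of elastic fibres, and lies on the minus strand at chr5:134702593-134747323. It had 666 counts in the lowest LNA29 liver, a median of 863 and 1225 in the highest, against 243, 213, 226, 306 and 243 in the saline livers. Every LNA29 liver was above every saline liver by a wide margin, with a log2 difference of 1.88 (SE 0.13, adjusted p = 1.05e-05) and of 1.72, 2.11 and 1.79 within the 3 flow cells. Sparc, a collagen-binding glycoprotein gene at chr11:55394500-55423183, had the smallest p of all genes. It ranged from 6895 to 9820 counts (median 8288) with LNA29, and had 3557, 3518, 3648, 4109 and 3668 counts with saline, a log2 difference of 1.17 (SE 0.076, adjusted p = 6.36e-06). The saline livers lay close together and the lowest LNA29 liver was well above them. Col3a1, which encodes the chain of type III collagen, spanned 3177 to 7184 counts (median 5528) with LNA29, against 2526, 1493, 2458, 2816 and 1726 with saline. Its log2 difference was 1.26 (SE 0.11, adjusted p = 7.54e-05), and the groups came closest at LNA29 replicate 3 and saline replicate 4.

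Other large rises were in genes not known as matrix genes. Dnaic1, a gene of the motor of motile cilia, had 41.2 to 308 counts (median 154) with LNA29 and 21.9, 20.8, 36.2, 15 and 40.9 with saline, a log2 difference of 2.23 (SE 0.36, adjusted p = 0.00621). The lowest LNA29 liver was barely above the highest saline liver, and the gene shares 15 bases with Enho on the opposite strand. Slc30a3, a zinc transporter gene, had 61.7 to 287 counts (median 113) with LNA29, against 26.1, 32.8, 16.5, 27.2 and 32 with saline (log2 difference 2.16, SE 0.24, adjusted p = 0.000404). H19, an imprinted non-coding RNA of fetal liver, had 61.9 to 151 counts (median 93.9) with LNA29 and 21.8, 18.5, 20.4, 30.3 and 40.3 with saline, a log2 difference of 1.85 (adjusted p = 0.000726). Both were low in all saline livers and separate from the LNA29 livers. Ccdc28b, a coiled-coil protein gene with a site 67 bases into a 3′ UTR of 118 bases, had 399 to 703 counts (median 513) with LNA29 and 134, 134, 189, 123 and 255 with saline, a log2 difference of 1.68 (SE 0.17, adjusted p = 0.000151). It lies over Tmem234 on the opposite strand across 4674 bases, and Tmem234 differed by 0.016 on the log2 scale (adjusted p = 0.938). Purg, which encodes a DNA- and RNA-binding protein, had 182 to 249 counts with LNA29 and 71.3 to 93.5 with saline (log2 difference 1.33, adjusted p = 7.54e-05). Taf7, a subunit gene of the general transcription factor TFIID, had 769 to 1175 against 396 to 510 counts (log2 difference 1.10, adjusted p = 0.000132). These genes met the criteria under all 13 removals of a single library. Nfe2l3 (log2 difference 1.49, adjusted p = 0.00323) met them under 8 of the 13, as its mean count falls to 50 or below in the others. Rad54b shares 7927 bases with Fsbp on the same strand, and Gm15638 overlaps Phldb2 and Plcxd2 on the opposite strand, so their counts (log2 differences 1.38 and 1.34) are uncertain, since the strand setting of the counting is not given in the sources used here.

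The largest falls with groups that did not overlap were led by genes of hormone and foreign compound metabolism, with lipogenic and acute phase genes among them. They were Cyp2g1, Sult3a2, Thrsp, Slc13a2, Cyp3a44, Saa2, Dct, Lad1, Dntt, Sult5a1, Lcn2, Ugt1a5, Car14, Ggt6 and Elovl6. Cyp2g1, a cytochrome P450 gene, had 46.8 to 183 counts (median 76.4) with LNA29 and 496, 336, 390, 426 and 216 with saline, a log2 difference of -1.97 (SE 0.27, adjusted p = 0.00163). Sult3a2, a sulfotransferase gene, had 55 to 193 counts (median 107) with LNA29 and 309, 560, 302, 368 and 409 with saline, a log2 difference of -1.87 (SE 0.25, adjusted p = 0.00163). Both genes were lower in every LNA29 liver, although reads of Sult3a2 could be divided with its near-identical relatives. Thrsp, which encodes the thyroid hormone-responsive Spot 14 protein of lipogenic tissues, had 1327 to 6326 counts (median 3555) with LNA29 and 9863, 13854, 7902, 7109 and 12332 with saline (log2 difference -1.66, SE 0.39, adjusted p = 0.0413). The LNA29 livers spread widely here, and replicates 1 and 3 came close to the lowest saline liver. Slc13a2, which takes up citrate and related acids, differed by -1.63 on the log2 scale (14.2 to 69.6 against 77.4 to 171 counts, adjusted p = 0.0196). Car14, a membrane carbonic anhydrase gene, had 639 to 1488 counts with LNA29 and 2021 to 2384 with saline (log2 difference -0.96, adjusted p = 0.00144). Dct, known for melanin synthesis, differed by -1.42 (84.4 to 375 against 465 to 779 counts), Lad1 by -1.32 (70.1 to 140 against 173 to 306 counts) and Dntt by -1.16 on the log2 scale (28.8 to 97 against 108 to 216 counts). Ggt6, of the gamma-glutamyltransferase family, had 465 to 885 counts with LNA29 and 947 to 1497 with saline, a log2 difference of -0.93 (adjusted p = 0.00633). All 15 met the criteria under every removal of a single library, with the highest adjusted p at 0.135 for Thrsp without saline replicate 2.

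**Figure D1:**
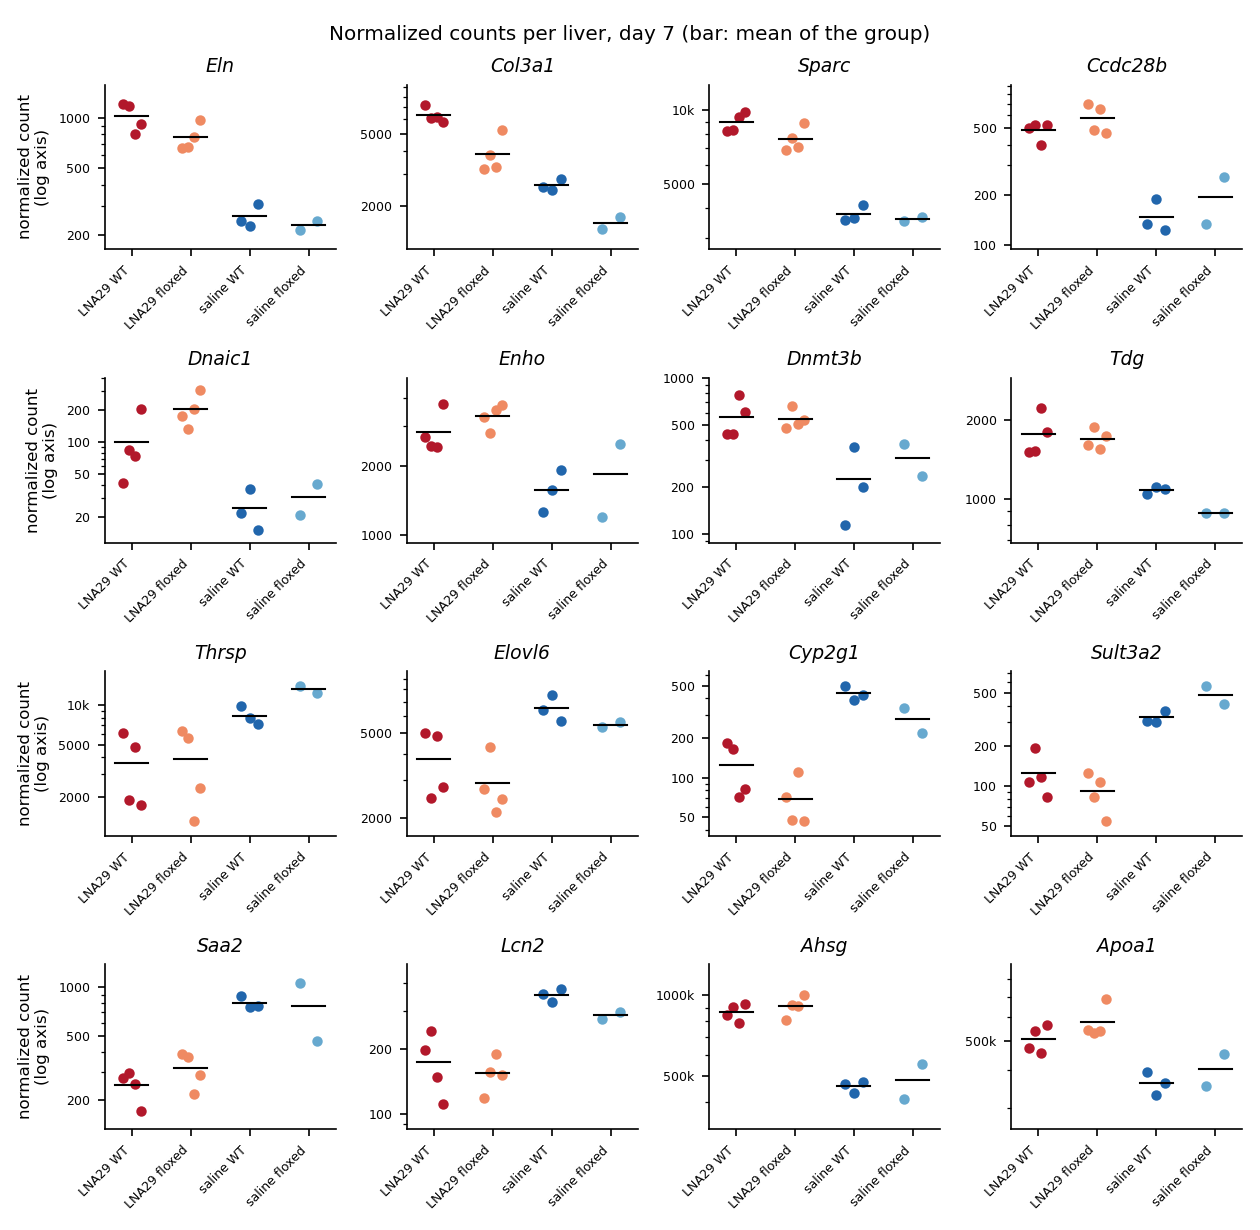
Normalized counts (log axis) of 16 genes in each of the 13 livers, split into LNA29 WT (4), LNA29 floxed (4), saline WT (3) and saline floxed (2); each dot is a liver and each bar a group mean. Eln, Sparc and Col3a1 sit higher and Cyp2g1, Sult3a2 and Saa2 lower in every LNA29 liver than in any saline liver, in WT and in floxed mice alike. Enho is the only panel in which the groups overlap (2440 to 3776 with LNA29, up to 2499 with saline).

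Genes with a miR-29 seed match in the 3′ UTR had higher medians than genes without one over the 13 livers, and the shift was small in the middle of each class and large for a minority. Of the genes tested, 13483 were matched to a 3′ UTR. The 449 genes with an 8-base site had a median log2 difference of 0.10, and 78 of them (17.4%) rose while 8 (1.78%) fell. The 2098 genes whose best site has 7 bases had a median of 0.044, with 137 (6.53%) that rose and 33 (1.57%) that fell. The 10936 genes with no site had a median of -0.0068, with 287 (2.62%) that rose and 362 (3.31%) that fell. The medians also followed the number of sites, at 0.044 for 1 site, 0.077 for 2 and 0.11 for 3 or more, and of the 126 genes in the last class 22 rose and 0 fell. The classes differ in 3′ UTR length, with medians of 2659, 2330 and 948 bases for 8-base, 7-base and no site, and the part of length in the shift was not tested. Genes with an 8-base match in the coding sequence and none in the 3′ UTR (284 genes) had a median of 0.015, with 11 that rose and 5 that fell. With the 6 matrix lists left out, the 428 remaining genes with an 8-base site had a median of 0.091, with 64 that rose and 7 that fell. The part of matrix genes outside these lists was not tested. By background, the median of the 8-base class was 0.062 in WT and 0.16 in floxed mice and that of the 7-base class 0.0033 and 0.086, against -0.0094 and -0.014 for genes with no site. The 7-base class as a whole was thus close to 0 in WT mice. Whether the classes differ between the backgrounds was not tested.

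Read from the side of the changed genes, 215 of the 502 genes that rose and had a 3′ UTR (42.8%) held a site, as did 41 of the 403 that fell (10.2%) and 18.9% of all. For comparison, the 7-base match to seed bases 2 to 8 occurs in 15.4% of the 3′ UTRs and its reverse complement in 11%. Among the largest rises, a site was found in 9 of 13 with a known 3′ UTR, and among the largest falls in 0 of 14. The 10 genes with the smallest p among holders of an 8-base site all rose: Eln, Col3a1, Purg, Taf7, Ccdc28b, Lamc1, Timd2, P3h1, Tdg and Ppic. Timd2, a cell surface receptor gene for ferritin, had 6638 to 8631 counts (median 7226) with LNA29 and 5675, 4890, 4375, 5362 and 4394 with saline, a log2 difference of 0.61 (SE 0.073, adjusted p = 0.000644). Ppic, a prolyl isomerase gene, had 229 to 331 counts with LNA29 and 147 to 159 with saline (log2 difference 0.84, adjusted p = 0.000787). Holding a site did not by itself go with a rise: Dnmt3a with 6 sites differed by 0.32 (adjusted p = 0.5) and Sirt1 with 1 site by 0.047 on the log2 scale (adjusted p = 0.875). Dnmt3a is named here after its value was seen.

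**Figure D2:**
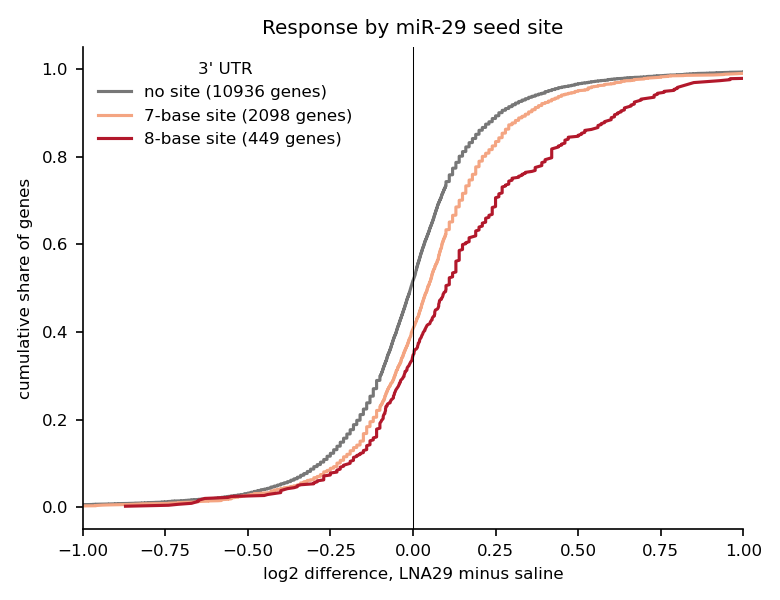
Cumulative share of genes (vertical axis, 0 to 1) against the log2 difference LNA29 minus saline for genes whose 3′ UTR holds an 8-base site (449), a 7-base site (2098) or no site (10936). The 8-base curve lies to the right of the others, with medians of 0.10, 0.044 and -0.0068, and separates most in its upper part.

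Among the fibrillar collagens, the rod-like collagens that give tissue its tensile strength, 5 of 8 tested genes rose and 0 fell, and the median log2 difference was 0.72. Besides Col3a1 these were Col1a1, Col1a2, Col5a1 and Col5a2. Col1a2, a chain of type I collagen, had 1032 to 2046 counts (median 1559) with LNA29 and 1040, 646, 1035, 1133 and 811 with saline, a log2 difference of 0.75 (SE 0.11, adjusted p = 0.00287), with a slight overlap of the groups. Its partner chain Col1a1 had 514 to 1997 counts with LNA29 against 556, 346, 536, 484 and 627 with saline, a log2 difference of 0.93 (SE 0.21, adjusted p = 0.038), and LNA29 replicate 3 alone lay within the saline range. Col5a1, which nucleates collagen fibrils, differed by 0.71 on the log2 scale (adjusted p = 0.00512). Col5a2 (0.73 on the log2 scale, adjusted p = 0.145) met the criteria under 8 of the 13 removals of a single library, and its adjusted p was 0.314 without saline replicate 2. The other 4 met them in every such fit. Of the 8 genes, 7 hold a site in the 3′ UTR.

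Basement membranes are thin sheets of type IV collagen, laminins, nidogens and perlecan, and in the liver sinusoid they are sparse. Of 23 genes of this kind, 10 rose and 1 fell (median log2 difference 0.39). Lamc1, the common gamma chain of laminins, had 1199 to 1596 counts (median 1386) with LNA29 and 915, 837, 735, 835 and 827 with saline, a log2 difference of 0.73 (SE 0.078, adjusted p = 0.00024). Nid1, which links laminin to collagen IV, had 1215 to 1893 counts (median 1572) against 981, 883, 1099, 1031 and 827 (log2 difference 0.73, SE 0.097, adjusted p = 0.00144). Hspg2, which encodes perlecan, had 1411 to 1794 counts against 1085, 1150, 1054, 865 and 983 (log2 difference 0.63, SE 0.083, adjusted p = 0.00144). In these 3 genes the groups did not overlap. Lamc3 differed by 1.40 on the log2 scale (adjusted p = 0.0345), Col4a2 by 1.01 (adjusted p = 0.00888), Col4a4 by 1.01 (adjusted p = 0.0314), Col4a5 by 0.76 (adjusted p = 0.0399) and Lama2 by 0.53 (adjusted p = 0.0405), each with overlapping groups. Col4a1 (0.63, adjusted p = 0.104) and Nid2 (0.45, adjusted p = 0.185) rose, and Col15a1, which yields the endothelial fragment restin, fell by 0.56 on the log2 scale (adjusted p = 0.151). The calls of these last 3 did not hold in each fit, with adjusted p-values of 0.23, 0.462 and 0.372 without saline replicate 5. Nid1 and Lamc3 hold no site in the 3′ UTR, and 11 of the 23 genes do.

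Among genes of elastic fibres and lysyl oxidases, 5 of 20 rose and 0 fell (median log2 difference 0.24). Next to Eln and Sparc these were Fbn1, Loxl1 and Loxl2. Loxl2, a copper enzyme that crosslinks collagen and elastin, had 279 to 467 counts (median 374) with LNA29 and 215, 152, 243, 246 and 170 with saline, with no overlap (log2 difference 0.85, SE 0.13, adjusted p = 0.00333). Its count is uncertain in the same way as that of Gm15638, since Gm27177 lies over it on the opposite strand across 74219 bases at a mean of 849 counts. Fbn1, the microfibril protein fibrillin-1, differed by 0.63 on the log2 scale (SE 0.088, adjusted p = 0.00227), with 218 to 367 counts against 152 to 233. Loxl1 (0.48, adjusted p = 0.176) had an adjusted p of 0.339 without saline replicate 5. Of 12 other collagens, the 3 chains of type VI collagen rose and 0 fell: Col6a1, Col6a2 and Col6a3 had log2 differences of 0.61, 0.57 and 0.64 (adjusted p = 0.00563, 0.0464 and 0.0488), under every removal of a single library.

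Of 18 genes that modify, fold or cut procollagen, 3 rose and 0 fell. P3h1, a prolyl 3-hydroxylase of the endoplasmic reticulum, had 1118 to 1530 counts (median 1319) with LNA29 and 565, 765, 758, 738 and 910 with saline, with no overlap (log2 difference 0.79, SE 0.097, adjusted p = 0.000787). Serpinh1, the collagen chaperone HSP47, had 1116 to 1711 against 840 to 1235 counts (log2 difference 0.53, adjusted p = 0.0377). Adamts14, a procollagen protease gene, had a log2 difference of 0.89 (adjusted p = 0.108, or 0.281 without saline replicate 5). Of 18 proteases and inhibitors that turn matrix over, Mmp2 and Adamts9 rose and Mmp19 fell. Mmp2, gelatinase A, had 207 to 544 counts (median 403) with LNA29 and 180, 181, 195, 188 and 144 with saline (log2 difference 1.07, SE 0.21, adjusted p = 0.0155). Adamts9 differed by 0.56 (adjusted p = 0.0116) and Mmp19 by -0.44 on that scale (adjusted p = 0.0694, or 0.215 without saline replicate 5). Markers of the matrix-producing stellate cells differed little in the median, at 0.073 on the log2 scale. Of 16 tested 1 rose and 0 fell, with 2 at an unadjusted p under 0.05 in limma's test. Their summed count was 30600 to 37600 with LNA29 and 27800 to 37500 with saline. Dcn and Ecm1 made up most of this sum, so it says little about the markers with low counts. The marker that rose was Pdgfrb (0.27, adjusted p = 0.146, and 0.272 without saline replicate 1). It was also the only gene of 21 growth factor ligands and receptors to meet the criteria (4.76%, against 3.49% higher over all genes).

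**Figure D3:**
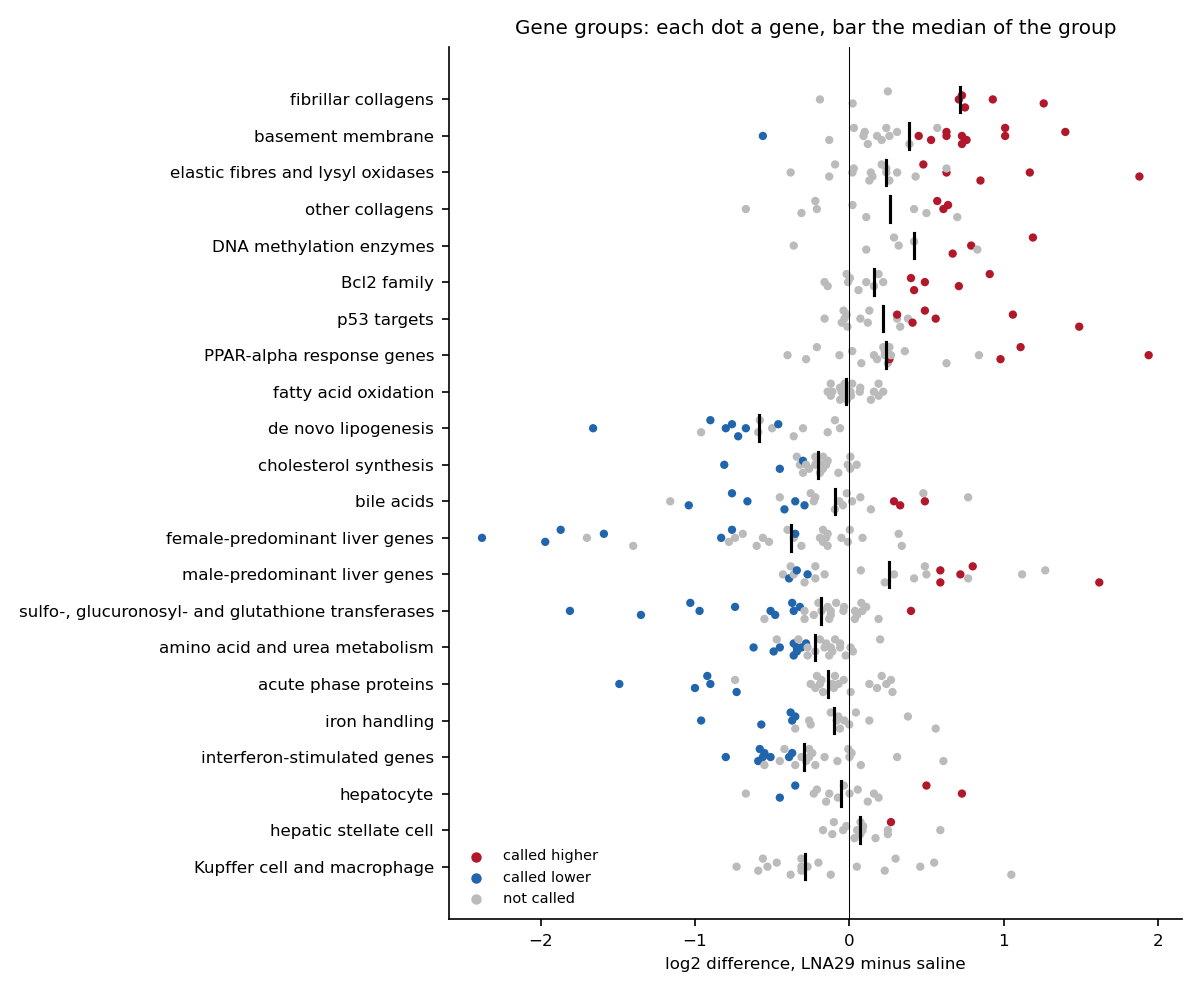
Log2 difference LNA29 minus saline of each tested gene (dots) in 22 gene lists, with a bar at the list median and genes that met the criteria in colour. The matrix lists lie to the right of 0 (medians 0.72 for fibrillar collagens and 0.39 for basement membrane) and de novo lipogenesis to the left (-0.58), while fatty acid oxidation is centred on 0 (-0.02).

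Of 9 tested enzymes that write or remove DNA methylation, 3 rose and 0 fell (median log2 difference 0.42), each with groups that did not overlap and under every removal of a single library. Dnmt3b, a de novo DNA methyltransferase, had 435 to 774 counts (median 524) with LNA29 and 114, 378, 362, 199 and 235 with saline, a log2 difference of 1.19 (SE 0.25, adjusted p = 0.0247). The saline livers varied widely, and all lay below the lowest LNA29 liver. Tet3, which oxidizes methylcytosine and holds 10 sites, the most of any gene, had 953 to 1384 counts (median 1180) against 766, 803, 912, 586 and 641 (log2 difference 0.67, SE 0.12, adjusted p = 0.0109). Tdg, the thymine DNA glycosylase that completes demethylation, had 1507 to 2229 counts (median 1676) against 1047, 888, 1116, 1093 and 889 (log2 difference 0.79, SE 0.097, adjusted p = 0.000787).

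Genes of cell death control rose in part. Of 15 genes of the Bcl2 family, 5 rose and 0 fell (median log2 difference 0.16). Mcl1, a survival factor with an 8-base site, had 7174 to 9060 counts (median 7738) with LNA29 and 6294, 6099, 5363, 5848 and 5828 with saline, with no overlap (log2 difference 0.42, SE 0.065, adjusted p = 0.00439). The death-promoting members Bik (log2 difference 0.91, adjusted p = 0.017), Bok (0.71, adjusted p = 0.0604) and Bax (0.49, adjusted p = 0.016), which hold no site, and Bak1 (0.40, adjusted p = 0.107, and 0.234 without saline replicate 5) rose as well. Bak1 shares 9200 bases with Ggnbp1 on the opposite strand (mean 781 counts). Of 18 targets of the tumour suppressor p53, 6 rose and 0 fell (median 0.22). Only Bax met the criteria under every removal of a single library. Cdkn1a, the cell cycle inhibitor p21, had 657 to 4378 counts (median 2127) with LNA29 and 807, 445, 1618, 1172 and 344 with saline, a log2 difference of 1.49 (SE 0.42, adjusted p = 0.0879). Its groups overlapped widely, and its adjusted p was 0.26 without saline replicate 5. Without that library the adjusted p of Eda2r was 0.447, that of Ppm1d 0.251 and that of Plk2 0.364, and without saline replicate 2 that of Phlda3 was 0.28. Of 25 genes of DNA replication and mitosis 23 had a positive difference (median 0.31), but only Aurka rose (0.37, adjusted p = 0.166, and 0.347 without saline replicate 2). Aurka alone is 4% of that list, near the 3.49% higher over all genes. Of 18 fetal and imprinted genes, H19, Peg3 (log2 difference 0.74, adjusted p = 0.056) and Nrep (0.73, adjusted p = 0.0681) rose and 0 fell. Of 17 genes of the insulin-like growth factor axis, Igfbp2 and Irs2 rose, and of 20 genes of insulin and PI3 kinase signalling 0 rose and 0 fell in limma's test, with 3 at an unadjusted p under 0.05. Irs2, an insulin receptor substrate, had a log2 difference of 0.92 (adjusted p = 0.12, or 0.292 without saline replicate 5).

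De novo lipogenesis builds fatty acids from acetyl-CoA, and 7 of its 16 tested genes fell while 0 rose. The median log2 difference was -0.58, at -0.69 within WT and -0.32 within floxed mice, and all 16 were negative. The genes that fell were Acly, Acacb, Fasn, Acss2, Elovl6, Pklr and Thrsp. Elovl6, which extends palmitate to stearate, had 2143 to 5008 counts (median 2765) with LNA29 and 6407, 5320, 7510, 5685 and 5605 with saline (log2 difference -0.90, SE 0.19, adjusted p = 0.0279). Elovl6 and Thrsp were the members whose groups did not overlap. Fasn, fatty acid synthase, had 12381 to 28284 counts (median 16472) with LNA29 and 25246, 38489, 28091, 20398 and 33551 with saline (log2 difference -0.72, SE 0.18, adjusted p = 0.0536). Acly, which makes cytosolic acetyl-CoA from citrate, had 6743 to 17309 counts (median 9687) against 17989, 18738, 23622, 15856 and 12636 (log2 difference -0.76, SE 0.21, adjusted p = 0.078). In both genes the higher LNA29 livers reached into the saline range. Elovl6, Fasn and Thrsp met the criteria under every removal of a single library. The adjusted p without saline replicate 2 was 0.224 for Acly, 0.415 for Acacb and 0.362 for Acss2, and that of Pklr was 0.217 without saline replicate 1. Acss2 shares 22544 bases with Gss on the opposite strand. Scd1, the stearoyl-CoA desaturase and the member with the highest mean count, had 112879 to 433693 counts with LNA29 and 254431 to 646105 with saline, a log2 difference of -0.58 (adjusted p = 0.441).

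Of 18 regulators of lipogenesis, transcription factors and the proteins that control them, 0 rose and only Insig1, which retains SREBP in the endoplasmic reticulum, fell (log2 difference -0.55, adjusted p = 0.123, and 0.335 without saline replicate 5). Srebf1 had a log2 difference of -0.49 (adjusted p = 0.285) and Mlxipl, which encodes ChREBP, one of -0.17 (adjusted p = 0.579), both named after their values were seen. Of 22 genes of cholesterol synthesis 3 fell and 0 rose (median -0.20). Sc5d, a late enzyme of the pathway, had 19824 to 33792 counts (median 28554) with LNA29 and 37252, 40424, 38950, 36446 and 35246 with saline, with no overlap (log2 difference -0.45, SE 0.12, adjusted p = 0.0636). Mvd (-0.81, adjusted p = 0.113) and Tm7sf2 (-0.30, adjusted p = 0.118) reached 0.323 without saline replicate 5 and 0.272 without saline replicate 2. Mvd also lies over Gm20388, across 9822 bases on the opposite strand. Of 21 genes that make or hydrolyse triglycerides, 3 had an unadjusted p under 0.05 in limma's test and only Lpl met the criteria. Lpl, lipoprotein lipase, which is low in adult liver and holds an 8-base site, had 1788 to 3655 counts (median 2468) with LNA29 and 1156, 1733, 1268, 1764 and 1318 with saline, a log2 difference of 0.80 (SE 0.17, adjusted p = 0.0283). Its lowest LNA29 liver was just above its highest saline liver. Of 11 lipid droplet proteins, 4 had an unadjusted p under 0.05 in limma's test. Only Fitm1, which partitions triglyceride into droplets, met the criteria. It had 190 to 357 counts (median 257) against 403, 549, 552, 492 and 418 (log2 difference -0.89, SE 0.15, adjusted p = 0.00625).

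Fatty acid oxidation breaks fatty acids down in mitochondria and peroxisomes. Of 22 tested, 0 rose and 0 fell in limma's test and 0 had an unadjusted p under 0.05 (median log2 difference -0.02). Cpt1a, the gate of mitochondrial oxidation, had 11096 to 26685 counts with LNA29 and 9761 to 20932 with saline (log2 difference 0.19, adjusted p = 0.626). Of 22 genes that respond to the fatty acid receptor PPAR-alpha, 4 rose and 0 fell (median 0.24), and 0 of these 4 met the criteria in each fit. They were Fgf21, Angptl4, Cyp4a31 (log2 difference 0.98, adjusted p = 0.0889) and Acot12 (0.26, adjusted p = 0.191), and the last 2 reached 0.259 and 0.443 without saline replicate 2. Fabp1, the fatty acid binding protein with the highest mean count of the list, differed by 0.16 on the log2 scale (adjusted p = 0.581). Of 20 apolipoproteins and genes of lipoprotein assembly, 2 rose and 0 fell. Apoa1, the main protein of high-density lipoprotein, had 455017 to 690143 counts (median 539303) with LNA29 and 393648, 354463, 332004, 364118 and 453059 with saline (log2 difference 0.50, SE 0.099, adjusted p = 0.0195). Scarb1, the receptor for such particles, had a log2 difference of 0.30 (adjusted p = 0.124, or 0.325 without saline replicate 2). Of 12 desaturases and elongases, Fads6 (-0.31, adjusted p = 0.129, and 0.359 without saline replicate 5) fell beside Elovl6.

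Genes of bile acid handling went in both directions. Of 23, 3 rose and 6 fell (median log2 difference -0.093). Akr1d1, a reductase of bile acid synthesis, had 8373 to 15372 counts (median 10633) with LNA29 and 16250, 17964, 16175, 20176 and 15579 with saline (log2 difference -0.66, SE 0.11, adjusted p = 0.00663). Baat, which conjugates bile acids with taurine, had 11955 to 17359 counts (median 12877) against 18130, 17246, 16608, 19721 and 19109 (log2 difference -0.42, SE 0.09, adjusted p = 0.0284). Akr1d1 was lower in every LNA29 liver, while LNA29 replicate 1 reached into the saline range for Baat. Cyp7a1, the rate-limiting enzyme, differed by -1.04 (adjusted p = 0.18) with 1160 to 5966 against 2313 to 9907 counts, and had an adjusted p of 0.427 without saline replicate 5. The uptake carriers Slc10a1 (-0.29, adjusted p = 0.0918), Slc10a2 (-0.76, adjusted p = 0.143) and Slco1a4 (-0.35, adjusted p = 0.0814) fell and reached 0.25, 0.387 and 0.239 without the same library. The genes that rose were the exporters Abcg5 (0.49, adjusted p = 0.0345), Abcb4 (0.33, adjusted p = 0.154) and Abcc3 (0.29, adjusted p = 0.193), of which the last 2 reached 0.339 and 0.38 without saline replicate 2. Other carriers did not meet the criteria, among them the uptake carriers Slco1a1 (0.77, adjusted p = 0.275) and Slco1b2 (0.14, adjusted p = 0.588) and the exporters Abcc4 (-0.45, adjusted p = 0.251), Abcc2 (-0.064, adjusted p = 0.797) and Abcb11 (0.018, adjusted p = 0.962), all named after their values were seen. Abcg5 lies over its partner gene Abcg8 on the opposite strand across 6710 bases.

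Female mouse liver expresses sets of genes at other levels than male liver, under the control of the growth hormone pattern. Of 30 female-predominant genes, 7 fell and 0 rose (median log2 difference -0.38, at -0.12 within WT and -0.57 within floxed mice). Beside Cyp2g1 and Sult3a2 these were Cyp3a41a, Cyp3a44, Cyp17a1, Cyp2a4 and Sult3a1. Cyp3a44 had 355 to 1890 counts (median 1200) with LNA29 and 3651, 3226, 2956, 2765 and 5026 with saline (log2 difference -1.59, SE 0.31, adjusted p = 0.0175). Sult3a1 had 3502 to 5666 counts (median 4265) against 7167, 9953, 6774, 7596 and 7027 (log2 difference -0.83, SE 0.12, adjusted p = 0.0026). Both were separate between the groups. Cyp3a41a, Cyp17a1 (-0.76, adjusted p = 0.135) and Cyp2a4 (-0.35, adjusted p = 0.139) reached 0.41, 0.351 and 0.295 without saline replicate 5. Of 24 male-predominant genes, 5 rose and 3 fell (median 0.26, at 0.01 within WT and 0.54 within floxed mice), and only Cyp2d9 did so in each fit: 3195 to 5176 counts (median 4627) with LNA29 against 2424, 2070, 2526, 2823 and 2407 (log2 difference 0.80, SE 0.13, adjusted p = 0.00495). Serpina1e differed by 1.62 (adjusted p = 0.104) with 15060 to 154389 against 6902 to 37148 counts, and its adjusted p was 0.28 without saline replicate 2. Without saline replicate 5, Selenbp2 (0.72) reached 0.29, Nox4 (0.59) 0.323, Mup3 (-0.39) 0.285 and Cyp2f2 (-0.34) 0.294, without saline replicate 2 Mup20 (0.59) reached 0.208, and without saline replicate 4 Ugt2b1 (-0.27) reached 0.286. The Cyp3a, Cyp2d, Sult3a, Serpina1 and Mup families hold near-identical members among which reads may be divided.

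Of 28 other P450 genes of families 1 to 3, 3 rose and 0 fell, each under every removal of a single library. They were Cyp3a11 (180364 to 242453 against 147635 to 175516 counts, log2 difference 0.34, adjusted p = 0.0196), Cyp2c67 (14035 to 18853 against 9510 to 13336 counts, 0.47, adjusted p = 0.00169) and Cyp2c68 (0.30, adjusted p = 0.038). Conjugating enzymes went the other way in the main. Of 31 transferases that attach sulfate, glucuronic acid or glutathione, 10 fell and 1 rose (median -0.18). Gsta2, a glutathione transferase, had 515 to 2449 counts (median 848) with LNA29 and 3040, 2379, 2228, 3106 and 2525 with saline (log2 difference -1.35, SE 0.31, adjusted p = 0.0377). Only LNA29 replicate 1 reached into the saline range. Gstt3 differed by -0.74 (adjusted p = 0.0157), Gstt2 by -0.51 (adjusted p = 0.0316), Sult5a1 by -1.03 (adjusted p = 0.00621) and Ugt1a5 by -0.97 on the log2 scale (adjusted p = 0.0141), while Ugt1a9 differed by 0.40 (adjusted p = 0.0213). Sult5a1 shares 18124 bases with Gm20388 on the opposite strand, which has a mean of 1881 counts, so its count is uncertain. Ugt1a5 and Ugt1a9 share exons at 1 locus, so the split of reads between them is uncertain. Gsta1 (-1.81, adjusted p = 0.0866), Gsta4 (-0.36), Gstm2 (-0.48), Gstm6 (-0.37) and Sult1a1 (-0.32) fell too. Without saline replicate 5 the adjusted p was 0.218 for Gsta1, 0.295 for Gsta4, 0.29 for Gstm2 and 0.409 for Sult1a1, and for Gstm6 it was 0.319 without saline replicate 2.

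**Figure D4:**
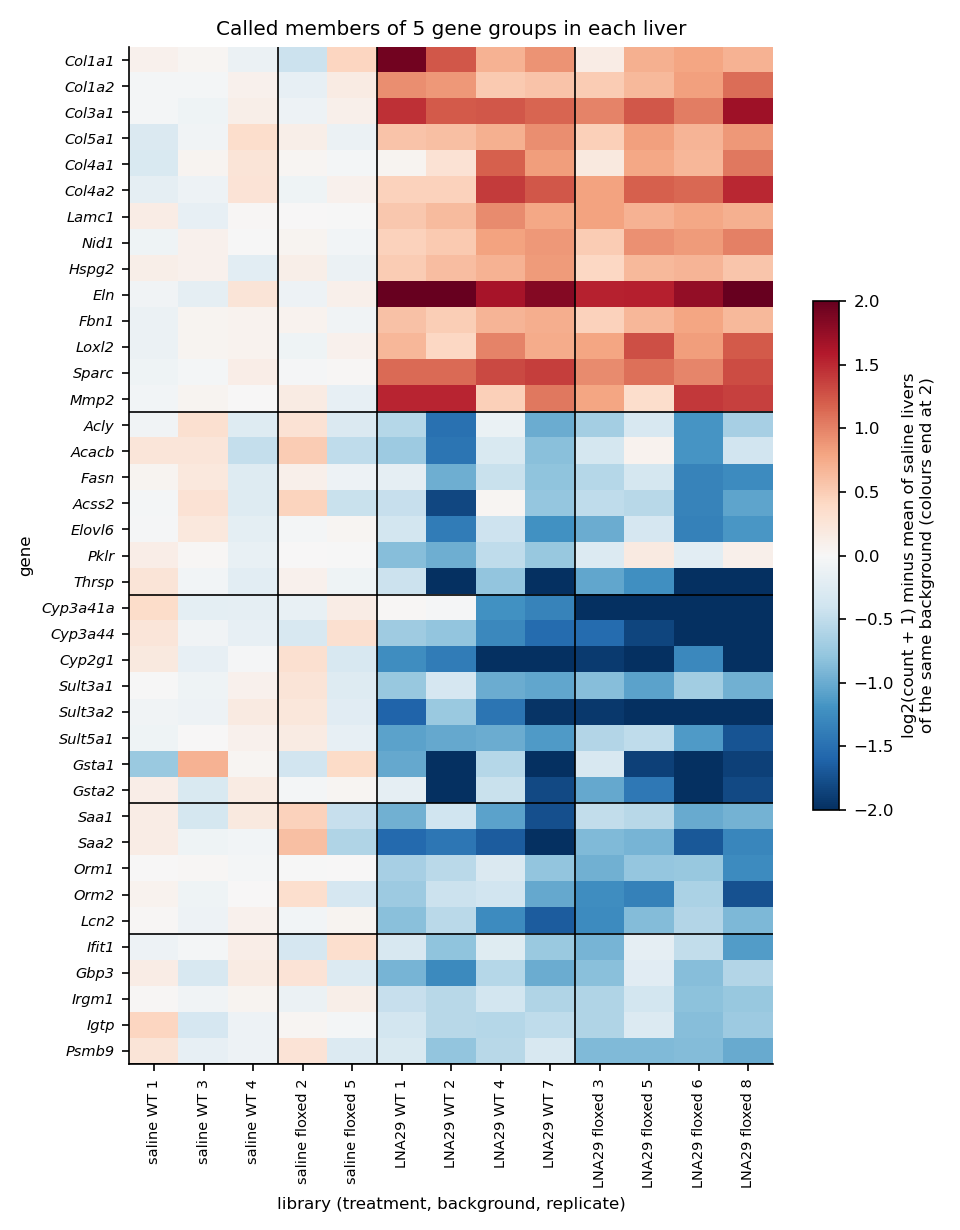
Log2(count + 1) in each of the 13 livers, minus the mean of the saline livers of the same background, for matrix genes that rose and, below them, for genes that fell in lipogenesis, P450 and conjugating enzymes, the acute phase, and interferon response and antigen presentation; the colour scale ends at -2 and 2. The genes shown were chosen for these directions, so that LNA29 columns are mostly above 0 in the top block and below 0 in the others, and the plot shows how the livers vary within each block.

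Genes of amino acid and glucose metabolism differed slightly downward. Of 27 genes of amino acid and urea metabolism, 9 fell and 0 rose, 24 differed downward, and the median log2 difference was -0.22. Gls2, the liver glutaminase, had 12310 to 25271 counts (median 16965) with LNA29 and 28567, 23954, 31684, 31948 and 21572 with saline (log2 difference -0.62, SE 0.099, adjusted p = 0.00571). Tat, tyrosine aminotransferase, had 36919 to 58081 counts (median 42889) against 80993, 53033, 66436, 71616 and 49927 (log2 difference -0.45, SE 0.11, adjusted p = 0.0423). The groups overlapped at their edges in both genes. Gpt2 (-0.49, adjusted p = 0.0196), Hpd (-0.36, adjusted p = 0.0604), Asl (-0.36, adjusted p = 0.0652) and Arg1 (-0.34, adjusted p = 0.0713) met the criteria under every removal of a single library. Hpd lies over Psmd9 on the opposite strand across 10921 bases. Otc (-0.28, adjusted p = 0.0934), Slc25a15 (-0.31, adjusted p = 0.0706) and Gpt (-0.34, adjusted p = 0.185) did not, and reached 0.257 without saline replicate 2, 0.201 without saline replicate 5 and 0.435 without saline replicate 5. Of 25 genes of glycolysis and gluconeogenesis, 4 fell and 1 rose. Ldhd, the D-lactate dehydrogenase, had 5873 to 7006 counts (median 6157) with LNA29 and 8971, 8440, 9631, 9882 and 8064 with saline, with no overlap and little spread (log2 difference -0.51, SE 0.056, adjusted p = 0.000288). Gckr, the glucokinase regulator, had 8023 to 10287 counts (median 8467) against 12265, 10901, 10984, 10337 and 10832 (log2 difference -0.34, SE 0.063, adjusted p = 0.0126). Slc2a2, the GLUT2 transporter (-0.30, adjusted p = 0.0932), and Pklr fell, and Ldha rose (0.38, adjusted p = 0.103, and 0.284 without saline replicate 2). Slc2a2 fell below the fold limit without saline replicate 1, at a log2 difference of -0.25.

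Several abundant secreted proteins changed. Of 21 hepatokines, proteins the liver sends to other organs, 5 rose and 2 fell. Ahsg, which encodes fetuin-A, a carrier of mineral and inhibitor of the insulin receptor, had 787060 to 1003615 counts (median 908326) with LNA29 and 467453, 412622, 431227, 475340 and 555587 with saline, with no overlap (log2 difference 0.92, SE 0.094, adjusted p = 0.00017). It holds no site. Enho, which encodes adropin, had 2440 to 3776 counts (median 3053) against 1256, 1202, 1571, 1921 and 2499 (log2 difference 0.89, SE 0.17, adjusted p = 0.0144). Igfbp2 had 43156 to 71552 counts (median 54610) against 28190, 33274, 25497, 33253 and 46296 (log2 difference 0.72, SE 0.13, adjusted p = 0.0116). In Enho and Igfbp2, only saline replicate 5 reached the LNA29 range. Of 24 acute phase proteins, which rise in inflammation, 5 fell and 0 rose, each under every removal of a single library. Saa2 had 172 to 385 counts (median 280) with LNA29 and 888, 1071, 756, 772 and 468 with saline (log2 difference -1.49, SE 0.21, adjusted p = 0.00231). Lcn2, an iron-scavenging defence protein, had 111 to 242 counts (median 154) against 358, 275, 328, 377 and 296 (log2 difference -1.0, SE 0.17, adjusted p = 0.00774). The log2 differences of Saa1, Orm1 and Orm2 were -0.92, -0.73 and -0.90 (adjusted p = 0.0401, 0.00287 and 0.0252). Reads of the Saa pair and of the Orm pair may be divided within each pair.

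Genes of iron handling fell in part. Of 18 tested 5 fell and 0 rose: Hfe2, which encodes hemojuvelin (-0.38, adjusted p = 0.0413), Hfe (-0.37, adjusted p = 0.0586), Ftl1 (-0.35, adjusted p = 0.064), Hamp2 (-0.96, adjusted p = 0.15) and Smad6 (-0.57, adjusted p = 0.183). Ftl1 reached 0.204 without saline replicate 5, and Hamp2 and Smad6 reached 0.314 and 0.435 without saline replicate 2. The next lists had 1 or 2 called members each. In them 1 called gene makes up 2.94% to 5.26% of a list, near the shares over all genes (3.49% higher and 2.76% lower). Of 22 metallothioneins and zinc transporters, Slc30a3 rose and Slc39a5, which lies over Ankrd52 on the opposite strand across 5299 bases, fell (-0.73, adjusted p = 0.057). Of 19 clock genes, Cry2 fell (-0.46, adjusted p = 0.0415) and Nfil3 rose (0.34, adjusted p = 0.0824, and 0.244 without saline replicate 5). Of 21 stress response genes only Chac1 rose (0.99, adjusted p = 0.142, and 0.376 without saline replicate 2), and of 34 genes of complement and coagulation only C8b (0.39, adjusted p = 0.0893, and 0.22 without saline replicate 5). Of 19 claudin and tight junction genes only Cldn1, with an 8-base site, rose: 7768 to 10182 counts (median 8587) against 5890, 6702, 7176, 6392 and 6715 (log2 difference 0.43, SE 0.071, adjusted p = 0.00672).

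Of 26 interferon-stimulated genes 8 fell and 0 rose (median log2 difference -0.29). Irgm1, a GTPase of defence against intracellular bacteria, had 2746 to 3754 counts (median 3112) against 4492, 4453, 4235, 4608 and 5267 (log2 difference -0.56, SE 0.081, adjusted p = 0.00287). It was lower in every LNA29 liver than in any saline liver. Gbp3 (-0.80, adjusted p = 0.0164), Igtp (-0.55, adjusted p = 0.0293), Rtp4 (-0.51, adjusted p = 0.021) and Stat2 (-0.37, adjusted p = 0.0582) also fell under every removal of a single library. Igtp shares 7974 bases with Irgm2, and Rtp4 39791 bases with Gm45338, on the same strand, so reads may be divided within each pair. Rtp4 also shares 525 bases with Masp1 on the opposite strand. Ifit1 (-0.59, adjusted p = 0.0868) and Ifi47 (-0.39, adjusted p = 0.188) reached 0.261 without saline replicate 5 and 0.397 without saline replicate 2. Of 24 genes of antigen presentation, 4 fell and 1 rose. Psmb9, a subunit of the immunoproteasome, had 653 to 998 counts (median 716) against 1479, 1593, 1102, 1158 and 1080 (log2 difference -0.67, SE 0.13, adjusted p = 0.0128). Psmb8 (-0.35, adjusted p = 0.0763), Nlrc5 (-0.42, adjusted p = 0.101) and Psmb10 (-0.27, adjusted p = 0.116) reached 0.238, 0.282 and 0.285 without saline replicate 2. Ifi30, a lysosomal thiol reductase of the class II pathway, had 1062 to 3016 counts (median 1440) against 728, 894, 696, 832 and 703 (log2 difference 0.99, SE 0.22, adjusted p = 0.032).

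Outside the hepatocyte list, markers of the other cell types of the liver met the criteria in at most 1 case per list. Of 18 Kupffer cell and macrophage markers 0 rose and 0 fell in limma's test, 2 had an unadjusted p under 0.05, and the median log2 difference was -0.29, with summed counts of 16800 to 75400 with LNA29 and 26700 to 42300 with saline. The sum of 75400 was that of LNA29 replicate 4 alone. LNA29 replicates 1, 2, 3 and 6 had 19100, 24000, 16800 and 25500, below every saline liver. LNA29 replicates 5, 7 and 8 had 39300, 36600 and 39000, within the saline range. Of 12 lymphocyte markers 1 rose (8.33%, against 3.49% higher over all genes) and 11 differed downward. The marker that rose was Cd4 (1.40, adjusted p = 0.189, and 0.409 without saline replicate 5). Of 16 markers of sinusoidal endothelium only Lyve1 fell (-0.49, adjusted p = 0.133, and 0.269 without saline replicate 1). It made up 6.25% of that list, against 2.76% lower over all genes. Of 9 cholangiocyte markers 8 differed upward (median 0.28) and 0 met the criteria, with summed counts of 4660 to 7560 with LNA29 and 3910 to 5280 with saline and 1 unadjusted p under 0.05. Spp1 made up most of this sum, with 2712 to 5342 counts with LNA29 and 2310 to 3341 with saline. It is also in the Kupffer cell and macrophage list, so the sum says little about the other cholangiocyte markers. Of 16 hepatocyte markers, Apoa1 and Foxa3 (0.73, adjusted p = 0.0615, and 0.202 without saline replicate 2) rose, and Tat and Onecut2 (-0.35, adjusted p = 0.0894, and 0.249 without saline replicate 2) fell. The share was 12.5% in each direction, against 3.49% higher and 2.76% lower over all genes. Of the neutrophil, red blood cell, pancreatic acinar and adipocyte lists, 4, 6, 7 and 2 markers were tested and 0 met the criteria, with 0, 0, 0 and 1 at an unadjusted p under 0.05. The acinar sum reached 1420 in saline replicate 4 and at most 392 with LNA29, while Prss1 was below 1 everywhere. The adipocyte list held Car3, which liver also expresses and which made up nearly all of its sum of 100000 to 178000, while Adipoq was at most 13.3 and Lep below 1 everywhere. The part of these cell types in the results was not tested.

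The response was compared between WT and floxed mice, which share no library. Within WT mice (4 against 3) 105 genes rose (0.664%) and 57 fell (0.361%), and within floxed mice (4 against 2) 772 rose (4.88%) and 522 fell (3.3%). The count of the floxed mice rests on few libraries: without saline replicate 5 it was 93 and 28, and without LNA29 replicate 3 it was 1288 and 1041. That of WT mice was 43 and 11 without saline replicate 4, 54 and 17 without saline replicate 3, 51 and 16 without LNA29 replicate 7, and 184 and 174 without LNA29 replicate 4. Directions were largely shared. Of the 105 genes that rose in WT mice, 103 (98.1%) were also higher with LNA29 in floxed mice, with a median log2 difference of 0.55 there, where 48.6% of all genes were higher. Of the 57 that fell in WT mice, 51 (89.5%) were lower in floxed mice (median -0.35), where 51.4% of all genes were lower. Of the 772 and 522 genes called in floxed mice, 561 (72.7%) and 431 (82.6%) went the same way in WT mice, with medians of 0.13 and -0.16. Eln differed by 1.99 in WT and 1.74 in floxed mice, Sparc by 1.24 and 1.08, Col3a1 by 1.28 and 1.24, Ahsg by 0.92 in both and Ldhd by -0.57 and -0.43 on the log2 scale.

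The difference between these responses was tested as an interaction term, and 1 gene of 15811 (0.00632%) passed an adjusted p under 0.2, while 1399 (8.85%) had an unadjusted p under 0.05. Without LNA29 replicate 3 the count was 97, and without any other single library it was 0 to 4. That gene was Agfg2, an adaptor of vesicle transport. Its counts with LNA29 were 1903, 1923, 2104 and 2067 in WT and 3178, 3531, 3107 and 3152 in floxed mice, and with saline 2744, 2685 and 2547 in WT and 2433 and 2568 in floxed mice. It was thus lower with LNA29 in WT mice (log2 difference -0.41) and higher in floxed mice (0.37), a difference of 0.78 (adjusted p = 0.143). It did not pass under every removal of a single library, and its adjusted p was 0.733 without saline replicate 5. The next genes by interaction p were Tprn, Ahcyl2, Rbm41, Mybbp1a and Cenpm. Tprn differed by 0.75 in WT and -1.17 in floxed mice (adjusted p = 0.284), and Ahcyl2 by -0.76 and 1.53 (adjusted p = 0.463).

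A few of the changed genes had log2 differences of unlike size in WT and floxed mice. Fgf21, a fasting-induced hormone, had 72.8, 548, 129 and 229 counts in LNA29 WT and 115, 271, 330 and 761 in LNA29 floxed livers, with 201, 80.5 and 108 in saline WT and 16.6 and 31.1 in saline floxed livers. Its log2 difference was 0.62 in WT and 3.65 in floxed mice (1.94 in all, adjusted p = 0.137), and the adjusted interaction p was 0.525. Angptl4, an inhibitor of lipoprotein lipase, differed by 0.096 in WT and 2.41 in floxed mice (1.11 in all, adjusted p = 0.199, interaction 0.525). Both saline floxed livers were low in both genes (1180 and 867 counts for Angptl4, against 8648 to 13098 in saline WT livers), and without saline replicate 2 the adjusted p of Fgf21 was 0.364, and without saline replicate 5 that of Angptl4 was 0.489. Cyp3a41a had 53351 and 64868 counts in saline floxed livers and 11925, 2375, 3677 and 312 in LNA29 floxed livers (log2 difference -4.62). In WT livers it had 95490, 64914 and 65224 counts with saline and 75479, 72929, 31812 and 29276 with LNA29 (log2 difference -0.64, and -2.38 over all 13 livers with an adjusted p of 0.165). Its adjusted interaction p was 0.525, so a difference between the backgrounds was not shown for any of these 3 genes.

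**Figure D5:**
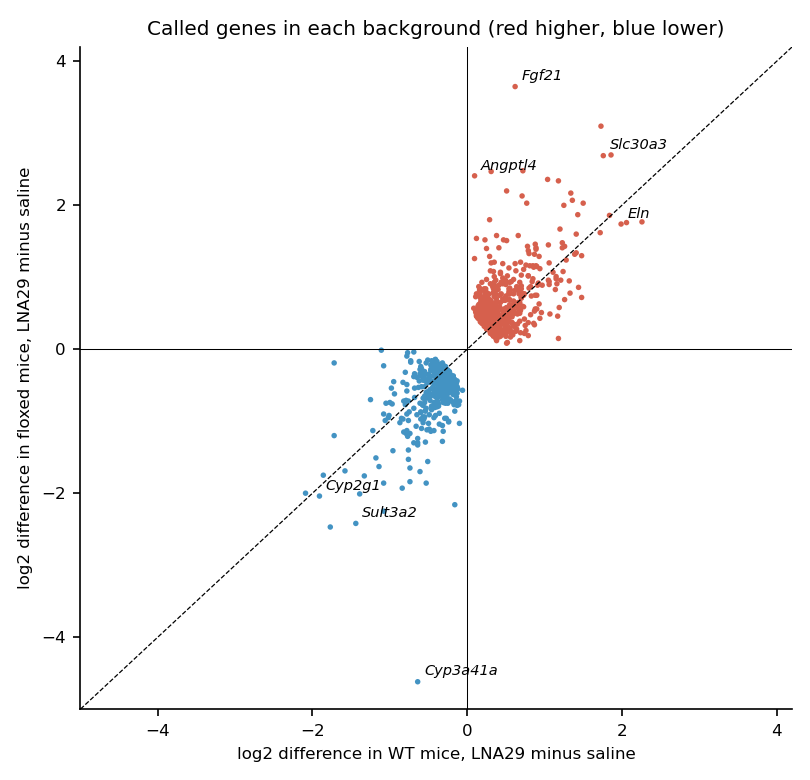
Log2 difference LNA29 minus saline within WT (horizontal) and within floxed mice (vertical) of the 988 genes that met the criteria over both, with a dashed line of equal differences. Most genes lie in the quadrants of shared direction, which the choice of genes on the average of both partly fixes, and Fgf21, Angptl4 and Cyp3a41a lie far from the line.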

How the data were processed

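RNA-seq values of 13 mouse livers were used, and 0 columns of their table were left without a matching sample. The signal that the authors deposited is a normalized gene count: per the labels and the methods, reads were aligned with STAR to mm10, genes were quantified with Salmon, and the estimated counts were divided by DESeq2 normalization factors. Of the low values, 65.9% to 71.3% were whole numbers of reads (tolerance 0.02 of a read), so reads were not recovered and no count model was run. Such scaling shows changes relative to the other genes of a liver. Of 48440 entries, 381 without a name (0.0144% of counts) and 130 with a repeated name (0.0909%) were left out, and 26 date-like names were kept.

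Genes with a mean of at least 10 were tested by limma 3.58.1 in R 4.3.3 (moderated statistics with a mean-variance trend) on log2(value + 1), with the background as covariate, and with means per treatment and background for the responses within WT and floxed mice and their interaction. The R package data.table in version 1.17.8, Python 3.11.15, pandas 2.3.3, numpy 2.4.6 and matplotlib 3.10.9 served for reading, summaries and figures. The code was tested on simulated data. Depth is an estimate, and its precision covers counting error only. The p-values treat each mouse as independent and measure the spread between mice. Some floxed mice may share a litter, since they are control littermates, and litters are not given. Per the paper, the LNA work ran both at the National Health Institutes and at NYU Winthrop Hospital. Which place each liver came from is not given in the sources used here. Sites were searched on the sense strand of the longest 3′ UTR of each gene in GENCODE M21. Some named genes overlap others on the opposite strand without a mark in the text, and their counts are uncertain in the same way. Among them are Car14 (521 bases with Aph1a), Nid2 (437 bases with Rtraf) and Ldhd (2246 bases with Znrf1).

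The members, the 50 gene lists and the tests were chosen with earlier results of these data known. Named are the 15 largest rises and falls with groups that did not overlap, the members of each list that met the criteria and that with the highest mean, the 10 smallest p-values among 8-base sites, the 6 smallest interaction p-values and genes the paper names for these livers. Genes outside this rule are marked. Alternatives were TMM scaling, a pseudocount of 10, no minimum mean, quality weights, the flow cell as covariate, no background term, the replicate number as a block, an adjusted p under 0.05 and each library left out. The authors' tables of other animals were not used. A few genes that this rule covers are not reported here.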

Additional observations from a re-analysis of the deposited data

Results flagged for a closer look

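In 12 of 362 groups of libraries tested for the named genes, the highest or the lowest library stood apart from the others by Dixon's criterion, which chance alone would give in about 1 in 20 groups. Among saline livers, Sparc was at 4109 counts in replicate 4 (3518 to 3668 in the others), Taf7 at 510 in replicate 2 (396 to 425), Col4a4 at 22.5 in replicate 2 (39.9 to 45.4), Mmp2 at 144 in replicate 5 (180 to 195), Pdgfrb at 472 in replicate 1 (596 to 634), Gstt2 at 2346 in replicate 3 (3426 to 3722), Arg1 at 75480 in replicate 1 (65111 to 66930) and Hpd at 110914 in replicate 3 (126972 to 131933). Among LNA29 livers, Cyp3a44 was at 355 counts in replicate 8 (921 to 1890 in the others), Col5a2 at 759 in replicate 4 (254 to 407), Col6a1 at 531 in replicate 3 (673 to 820) and Irs2 at 1009 in replicate 3 (2417 to 4075). LNA29 replicate 4, with the high Col5a2 count, is also the liver with the high sum of macrophage markers. Saline replicate 2, with the low Col4a4 count, had the highest sum of red blood cell markers (103000, against 31700 to 74400 with LNA29).

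Agfg2 was the gene that passed the interaction test of WT against floxed mice. It differed by -0.41 in WT and 0.37 in floxed mice on the log2 scale, a difference of 0.78 (limma, adjusted p = 0.143). The adjusted p was 0.216 without the minimum mean and 0.348 with the flow cell as covariate, so the gene did not pass in those fits. All 4 LNA29 WT livers were below and all 4 LNA29 floxed livers above the saline livers. The gene was picked by its interaction p in these same livers, so this separation is no separate evidence.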

How the results depend on the processing

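Leaving out each library in turn gave 317 to 692 genes that rose and 254 to 636 that fell, against 552 and 436. The counts were 727 and 644 with quality weights, 373 and 279 without the minimum mean, 196 and 130 at an adjusted p under 0.05, and 383 and 305 without the background term, of which 381 and 298 were shared. Within WT mice (105 and 57) they were 355 and 355 with quality weights, 32 and 7 at an adjusted p under 0.05 and 43 to 184 and 11 to 174 without 1 library, with 96 that fell with the flow cell as covariate. Within floxed mice (772 and 522) they were 442 and 250 without the minimum mean, 118 and 45 at an adjusted p under 0.05 and 93 to 1288 and 28 to 1041 without 1 library, with 918 that fell under quality weights. In fits that leave 1 saline floxed liver, that liver is assumed to vary like the other groups. The interaction count of 1 was 3 with a pseudocount of 10, 0 without the minimum mean, with the flow cell and at an adjusted p under 0.05, and 0 to 97 without 1 library, the 97 without LNA29 replicate 3. Agfg2 had an adjusted p of 0.216 without the minimum mean and 0.348 with the flow cell. Sirt1, not called under any setting, changed sign to -0.02 with quality weights, and was -0.03 to 0.11 without 1 library (lowest without saline replicate 5). TMM scaling (533 and 455), a pseudocount of 10 (543 and 432) and the flow cell moved the main counts by less than 1.5 times, and the median of genes with an 8-base site stayed between 0.077 and 0.12 under all alternatives. Of 174 named genes that met the criteria, 103 met them in each of the 13 fits without 1 library.

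The replicate number does not pair the livers: correlations of same-numbered deviations were -0.027, 0.195, -0.026, 0.004 and -0.309, and 2 of the 5 pairs join a WT with a floxed mouse. With the replicate number as a block the counts were 55 and 26, within WT mice 0 and 0, within floxed mice 2 and 2, and for the interaction 0 (Agfg2 adjusted p 1).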
